A study of Mus musculus with 9 samples.

Results

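The 10 genes described here encode the force-generating and actin-organizing machinery that platelets, contractile cells and ECs share: the myosin II heavy chains Myh9 and Myh10, the regulatory light chain Myl9, the light chain kinase Mylk, the crosslinkers Flna, Actn1 and Actn4, the tropomyosins Tpm1 and Tpm4, and the formin Diap1. They were chosen by gene name from a table of read counts for 46078 mouse genes, and each of the 10 had 1 row and passed the filter on low counts, which left 15937 genes. Diap1 is the older name of Diaph1 and was matched through its Ensembl identifier. The libraries were made from poly(A) RNA of bone marrow (BM) cells of wild-type B6 mice, sorted as CD45-Ter119-CD31+ and then by Sca-1 into a positive fraction (4 libraries, whose labels end in 7, 13, 15 and 19) and a negative fraction (5 libraries, ending in 8, 10, 14, 16 and 22). The labels name no treatment or age, and the study uses the fractions as ECs of arterioles (Sca-1+) and of sinusoids (Sca-1-). Some titles carry a further mark, CD452 on libraries 13, 14 and 22, its digits alone on library 10 and wt on libraries 8, 15, 16 and 19, and that of library 7 has none. The study writes wt for wild type, but the labels do not say what CD452 stands for or why the titles differ in this mark. The mark divides the libraries within both fractions, and its part in the differences was not tested. The titles of 15 and 16 share a number that no other title carries. Each title also opens with a running number, which is lower in every Sca-1+ title than in every Sca-1- title. What the running number stands for is not given, and its part cannot be told apart from that of the fraction. Whether the libraries came from separate mice is not settled by the labels, so p-values measure the spread between these libraries, and part of it may be technical. Library totals lay between 21581653 and 25959818 counts, at which 3 counts corresponded to between 0.0996 and 0.209 CPM (counts scaled to 1e6 per library).

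Nonmuscle myosin II is a hexamer of paired heavy, essential light and regulatory light chains that pulls on actin filaments once a kinase such as myosin light chain kinase phosphorylates the regulatory light chain. Platelets depend on the IIA heavy chain (Myh9), and maturing megakaryocytes switch off the IIB heavy chain (Myh10) under the control of Runx1. Filamin and alpha-actinin crosslink the filaments, tropomyosin runs along them and decides which myosins and severing proteins gain access, and formins such as mDia1 (Diap1) extend them in response to small GTPases. In ECs the same machinery sets cell tension and the tightness of junctions.

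The labels were first held against marker genes. Ly6a, which encodes Sca-1, was at 1133 ± 187 CPM in Sca-1+ (SD, n = 4) and 0.678 ± 0.524 CPM in Sca-1- libraries (SD, n = 5). The summed level of 12 endothelial markers lay between 7466 and 9277 CPM in Sca-1+ and between 1019 and 4291 CPM in Sca-1- libraries, and 10 of the 12 were higher in Sca-1+, the exceptions being Pecam1 and Esam. Emcn had the largest difference of the 10. In the study's staining, arterioles lacked Emcn and sinusoids carried it, so Emcn RNA ran opposite to that use of the fractions. The sum of 12 megakaryocyte and platelet markers lay between 32.5 and 79.4 CPM in Sca-1+ and between 24730 and 105470 CPM in Sca-1-, all 12 were lower in Sca-1+, and none was at 0 in every Sca-1+ library. Of 10 leukocyte markers 9 were lower in Sca-1+ (sums between 4.94 and 87.6 CPM against 1676 and 3258 CPM), and so were 7 of 10 erythroid markers (46.7 and 204 CPM against 534 and 2120.0 CPM). Of 12 smooth muscle and pericyte markers 8 were higher and 1, Smtn, was lower in Sca-1+, with sums between 831 and 1873 CPM in Sca-1+ and between 711 and 4323 CPM in Sca-1-. The Sca-1- fraction thus held high levels of megakaryocyte and platelet transcripts beside lower levels of most endothelial markers, which goes against its label as ECs alone. Since these are bulk libraries, fewer cells of a type and less RNA per cell cannot be told apart, and the part of each cell type in the differences below was not tested. Sca-1- libraries 8 and 10 stood apart from the other 3. They had the lowest TMM factors and the highest Sca-1- sums of megakaryocyte markers and of each other marker list, endothelial markers included. Values without them stand beside the results they decide.

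Of the 10 genes, 8 were lower in Sca-1+ cells at an adjusted p under 0.05 (edgeR quasi-likelihood F-test with Benjamini-Hochberg adjustment over all 15937 genes), none was higher (1, Myh10, at an unadjusted p under 0.05, and 1 adjusted in DESeq2 and in limma voom), and Myh10 and Actn4 did not pass. Among all genes tested 44.8% were called, 21.4% lower and 23.3% higher by the same rule. These shares also belong beside every count of a list, the marker lists above included. For the same 8 genes every Sca-1- library lay above every Sca-1+ library, which held for 18.8% of all genes tested. Without Sca-1- libraries 8 and 10, an alternative chosen after seeing the data, the same 8 were lower in edgeR, with log2 fold changes from -3.74 to -0.87 and adjusted p of at most 0.013. The median log2 fold change, Sca-1+ over Sca-1-, was -2.14 over the 10 genes and 0.07 over all genes tested. Without any scaling between libraries, the 10 genes together took between 0.333% and 0.430% of all counts in the Sca-1+ libraries and between 0.842% and 1.39% in the Sca-1- libraries. Below, values of single libraries stand in the order 7, 13, 15 and 19 for Sca-1+ and 8, 10, 14, 16 and 22 for Sca-1-.

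**Figure D1:**
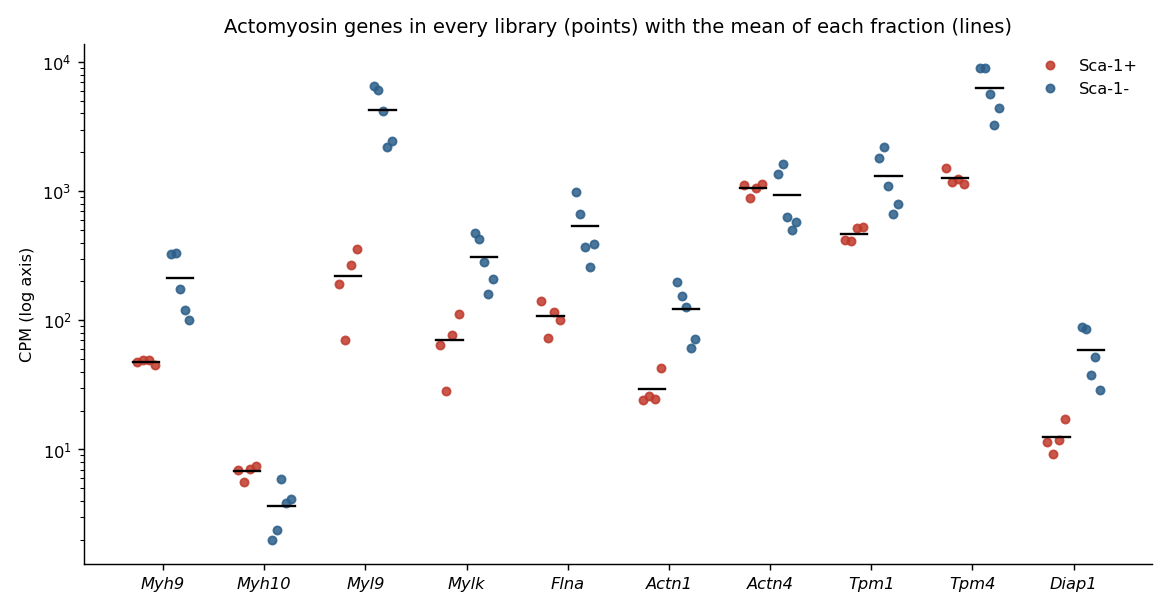
CPM of the 10 genes on a log axis in each of the 4 Sca-1+ and 5 Sca-1- libraries (points), with the arithmetic mean of each fraction (lines). For 8 genes all Sca-1- points lie above all Sca-1+ points, for Actn4 the fractions overlap, and for Myh10 3 of the 4 Sca-1+ points lie above all Sca-1- points.

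Among the heavy chains, Myh9 was lower in Sca-1+ cells and Myh10 was not shown to differ. Myh9 (nonmuscle myosin IIA, chr15:77760587-77842175, minus strand in GRCm38) measured 47.9, 49.1, 48.9 and 45.5 CPM in the Sca-1+ libraries and 329, 334, 174, 120.2 and 99.7 CPM in the Sca-1- libraries. Its Sca-1+ values differed from each other by at most 1.08 times, while the Sca-1- values spread over 3.35 times, and the lowest of them, library 22, was still above the highest Sca-1+ library. The difference was 4.42-fold (log2 fold change -2.14, SE 0.39, adjusted p = 0.0015).

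Myh10 (nonmuscle myosin IIB, chr11:68691559-68816632, plus strand) had a fold change of the opposite sign. It measured 6.99, 5.62, 7.11 and 7.40 CPM in Sca-1+ and 1.98, 2.37, 5.90, 3.82 and 4.11 CPM in Sca-1- libraries, from 165 to 206 and from 33 to 139 raw counts. Libraries 8 and 10, the highest for Myh9, were the lowest for Myh10, and Sca-1- library 14 alone overlapped the Sca-1+ range. The log2 fold change was 0.89 (SE 0.38, 95% interval 0.05 to 1.74, adjusted p = 0.081), so it missed the threshold although its own interval, which is not adjusted for the number of genes, lay above 0. DESeq2 and limma voom, and edgeR without library 14, called Myh10 higher in Sca-1+ (adjusted p = 0.027, 0.045 and 0.035), whereas scaling to endothelial markers turned its sign to -1.57 (adjusted p = 0.058). Without libraries 8 and 10 its log2 fold change in edgeR was 0.55 (adjusted p = 0.17).

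The Myh9 to Myh10 balance was taken within each library as the ratio of their counts and so does not depend on any scaling between libraries. There were 6.84, 8.72, 6.86 and 6.13 Myh9 counts per Myh10 count in the Sca-1+ libraries and 163, 139, 29.4, 31.3 and 24.1 in the Sca-1- libraries. Sca-1- libraries 8 and 10 had the highest ratios by far, the other 3 lay close together, and each of the 5 lay above all Sca-1+ libraries. On the log2 scale the balance was 2.82 ± 0.21 in Sca-1+ (SD, n = 4) and 5.78 ± 1.34 in Sca-1- (SD, n = 5), a difference of -2.96 or a 7.77-fold lower ratio in Sca-1+ (two-sided exact permutation test that puts the 9 libraries into groups of 4 and 5 in all ways, p = 0.0079, the lowest value open to it, and 0.0079 after Benjamini-Hochberg adjustment over the 4 balances tested). Without libraries 8 and 10 the difference was -1.99 and the exact permutation p = 0.029, again the smallest possible.

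Another heavy chain took a large share in the Sca-1+ fraction. Myh11, the smooth muscle myosin heavy chain, measured 42.7, 9.43, 65.96 and 91.2 CPM in Sca-1+ and 3.72, 0.140, 4.75, 0.0996 and 0 CPM in Sca-1- libraries, where 3 of the 5 were at or under the floor of 3 counts. It was higher in Sca-1+ (log2 fold change 4.91, SE 1.29, adjusted p = 0.011), and Myh14, the IIC heavy chain, had 0 counts in every library, which allows up to the 3-count floor given above. Per kb of exon, Myh9 made up between 21.7% and 68.1% of the myosin II heavy chain counts in Sca-1+ libraries and between 91.9% and 99.1% in Sca-1- libraries. Myh10 made up between 4.36% and 9.63% and between 0.726% and 4.85%, and Myh11 between 22.2% and 73.97% and between 0% and 4.27%. Library 13 had the smallest Myh11 share of the Sca-1+ libraries and library 19 the largest.

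**Figure D2:**
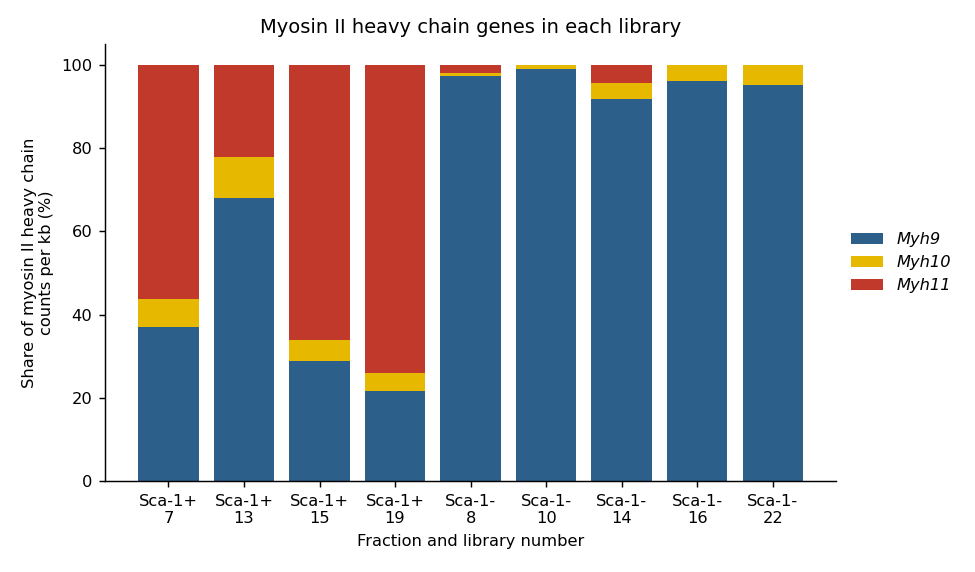
Share (%) of Myh9, Myh10 and Myh11 in the myosin II heavy chain counts per kb of exon in each library. Myh9 fills over 90% of each Sca-1- bar, while Myh11 takes between 22.2% and 73.97% of the Sca-1+ bars.

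The regulatory light chain and its kinase are shown first with the sequence before their RefSeq start sites, since these were the only 2 of the 9 genes with a promoter window in which any of 4 searched motifs was found. The motifs were the CArG box bound by Srf, the letters TGTGGT for Runx factors, the letters AGATAA for factors of the Gata family and the letters CGGAAG for ETS factors, searched on both strands in the 250 bases before the start. Capitals mark the matches, bases are from RefSeq on GRCm38.p6, and only the stretch free of annotated exons is printed. The Myl9 stretch is chr2:156775214-156775419 on the plus strand and that of Mylk chr16:34784700-34784920 on the plus strand. The Mylk start used by RefSeq lies inside the gene as GENCODE M21 annotates it (chr16:34745210-35002420, plus strand).
Myl9: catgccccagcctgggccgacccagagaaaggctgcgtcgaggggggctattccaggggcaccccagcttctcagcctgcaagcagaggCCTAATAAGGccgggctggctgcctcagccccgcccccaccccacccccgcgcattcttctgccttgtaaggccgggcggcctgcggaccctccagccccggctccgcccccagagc
Mylk: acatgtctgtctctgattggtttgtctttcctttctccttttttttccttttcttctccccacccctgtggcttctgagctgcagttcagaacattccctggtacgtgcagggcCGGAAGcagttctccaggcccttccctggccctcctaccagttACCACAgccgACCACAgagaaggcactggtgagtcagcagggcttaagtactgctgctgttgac
Myl9 held 1 CArG box, 161 bases before the start, which 1.47% of all 32851 windows of this length hold. Mylk held the Runx letters as their reverse complement ACCACA at 93 and 83 bases before the start (14.05% of windows hold any) and the ETS letters once, 136 bases before it (13.6%), with no overlap between matches. The Gata letters, in 9.99% of windows, were in neither. A match describes the letters only and shows no binding.

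Myl9 had the largest difference of the 10 genes. It encodes a regulatory light chain that smooth muscle, megakaryocytes and platelets carry at high levels. Its level was 190.3, 70.9, 267 and 356 CPM in Sca-1+ and 6511, 6114, 4138, 2198 and 2463 CPM in Sca-1- libraries. The fractions lay far apart, and within Sca-1+ the level spread over 5.02 times, from library 13 up to library 19. Myl9 was 19.4-fold lower in Sca-1+ (log2 fold change -4.28, SE 0.59, adjusted p = 0.00032).

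Mylk, the kinase that phosphorylates regulatory light chains in response to calcium, followed the same order within Sca-1+ with 64.7, 28.3, 77.3 and 111 CPM, and measured 476, 424, 283, 161 and 209.9 CPM in Sca-1- libraries. No Sca-1- library fell into the Sca-1+ range, although library 16 came near library 19. The fold was 4.41 (log2 fold change -2.14, SE 0.45, adjusted p = 0.0034). The table counts all Mylk transcripts together, so the long, short and telokin forms cannot be told apart, and 772 exon bases overlap genes on the other strand, whose reads are uncertain because the use of strand is not given in the sources used here.

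The order of Sca-1+ libraries in Myl9 and Mylk, 13 lowest, then 7 and 15, with 19 highest, was also that of 8 of the 12 smooth muscle and pericyte markers. It was not particular to such markers. Myh10, Tpm1, Diap1, Actb and Tmod3 stood in it as well, while Myh9, Flna, Actn1, Actn4 and Tpm4 did not. The share of all genes in this order was not counted. Acta2 measured 194, 87.6, 294 and 444 CPM, Myh11 stood in the same order, and the summed level of the 12 smooth muscle and pericyte markers, which include both, was 1192, 831, 1618 and 1873 CPM. Kcnj8, Smtn, Abcc9 and Cspg4 did not follow it, Kcnj8, a pericyte potassium channel gene, with 276, 361, 402 and 140.04 CPM. The part of such cells in the Myl9 and Mylk levels of Sca-1+ libraries was not tested.

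The other regulatory light chains did not follow Myl9. Myl12b, an isoform of nonmuscle cells, measured 427, 510.1, 469.6 and 426 CPM in Sca-1+ and 88.4, 104, 175, 306 and 119 CPM in Sca-1- libraries and was higher in Sca-1+ (log2 fold change 1.53, SE 0.36, adjusted p = 0.0058). Its near-identical neighbour Myl12a had 575, 667, 659.7 and 594 CPM against 449.8, 395, 555, 383 and 379 CPM, without overlap between the fractions but short of the threshold (log2 fold change 0.53, SE 0.21, adjusted p = 0.058). Another annotated gene model spans exons of both and their sequences are alike, so the split of reads between them is uncertain and they were summed for the balance. Myl9 counts per Myl12a plus Myl12b count were 0.190, 0.0603, 0.237 and 0.350 in Sca-1+ and 12.1, 12.2, 5.67, 3.19 and 4.95 in Sca-1- libraries. Per kb of exon Myl9 made up between 13.8% and 48.1% of the regulatory light chain counts in Sca-1+ libraries and between 89.4% and 97.1% in Sca-1- libraries. The log2 balance was -2.51 ± 1.09 in Sca-1+ (SD, n = 4) and 2.74 ± 0.85 in Sca-1- (SD, n = 5), a difference of -5.25 (two-sided exact permutation test, p = 0.0079, the lowest value open to it). The essential light chain Myl6 was lower in Sca-1+ (211 ± 22.7 against 721 ± 283 CPM, log2 fold change -1.77, SE 0.33, adjusted p = 0.0016).

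Upstream of myosin, 17 of 18 genes of light chain kinases, the myosin phosphatase and the small GTPases that steer them were tested, of which 6 were lower, 1 was higher and 10 did not pass. Rock2, a GTPase-activated kinase that phosphorylates the light chain and its phosphatase, fell from 708 ± 600.4 to 57.2 ± 14.6 CPM (log2 fold change -3.63, SE 0.66, adjusted p = 0.0014), while its paralog Rock1, named after its value was seen, had 88.3 ± 20.2 against 76.04 ± 28.9 CPM (log2 fold change 0.22, SE 0.31, adjusted p = 0.59). Rhoa, a small GTPase that activates it, had 199 ± 19.7 against 195 ± 49.2 CPM (log2 fold change 0.03, SE 0.22, adjusted p = 0.93, 95% interval -0.47 to 0.53), and Ppp1cb, the catalytic subunit of the myosin phosphatase, had 139 ± 28.9 against 213 ± 45.7 CPM (log2 fold change -0.61, SE 0.24, adjusted p = 0.056). The 1 gene that was higher, Rhoc, was named after its value was seen (283 ± 61.1 against 41.9 ± 10.9 CPM, log2 fold change 2.76, SE 0.25, adjusted p = 3.8e-05). Mylk3, a kinase known from heart muscle, was low in both fractions and lower in Sca-1+ (0.473 ± 0.623 against 10.98 ± 5.42 CPM, log2 fold change -4.52, SE 1.17, adjusted p = 0.010).

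Of the crosslinkers, Flna and Actn1 were lower in Sca-1+ and Actn4 was not shown to differ. Flna, which ties the actin network to the membrane and in platelets to the receptor of von Willebrand factor, measured 142, 73.2, 116 and 100.1 CPM in Sca-1+ and 989, 667, 368, 259.6 and 388 CPM in Sca-1- libraries. The fractions were separate, with library 7 the highest of Sca-1+ and library 16 the lowest of Sca-1-. The fold was 4.96 (log2 fold change -2.31, SE 0.42, adjusted p = 0.0015).

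Actn1, an alpha-actinin of focal adhesions and stress fibres, was at 24.2, 25.9, 24.8 and 42.6 CPM in Sca-1+ and 198, 154, 127, 61.4 and 71.1 CPM in Sca-1-. Library 19 stood above the other 3 Sca-1+ libraries, yet below every Sca-1- library. Actn1 was 4.17-fold lower in Sca-1+ (log2 fold change -2.06, SE 0.38, adjusted p = 0.0017).

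Actn4, the other nonmuscle alpha-actinin, was at 1120.2, 886, 1067 and 1134 CPM in Sca-1+, inside the range of 1369.6, 1611, 636, 498 and 579 CPM in Sca-1- libraries. Sca-1- libraries 8 and 10 lay above and 14, 16 and 22 below every Sca-1+ library. The log2 fold change was 0.16 (SE 0.38, 95% interval -0.69 to 1.02, adjusted p = 0.76). It depended on libraries and scaling: without libraries 8 and 10 it was 0.87 (adjusted p = 0.0036), with library size alone 0.74 (adjusted p = 0.018), and scaled to endothelial markers -1.82 (adjusted p = 2.8e-05). Exons of Actn1 and Actn4 overlap opposite-strand genes over 451 and 316 bases, so reads there are uncertain.

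Within libraries the alpha-actinins shifted against each other. Per kb of exon Actn1 made up between 2.33% and 3.99% of the counts of both in Sca-1+ and between 9.58% and 18.1% in Sca-1- libraries. Actn1 counts per Actn4 count were 0.0216, 0.0292, 0.0232 and 0.0376 in Sca-1+ and 0.145, 0.0957, 0.2001, 0.123 and 0.123 in Sca-1- libraries, without overlap. On the log2 scale the balance was -5.198 ± 0.36 in Sca-1+ (SD, n = 4) and -2.91 ± 0.39 in Sca-1- (SD, n = 5), 4.89-fold lower in Sca-1+ (two-sided exact permutation test, p = 0.0079, the lowest value open to it).

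Other crosslinkers and bundlers went up or did not pass. Of the 7 described, 5 were tested, 2 were higher in Sca-1+ and none was lower (0 at an unadjusted p under 0.05 in edgeR, and 0 in DESeq2 and limma voom). Fascin (Fscn1), which bundles the filaments of filopodia, and plastin 3 (Pls3) were 17.1-fold and 8.14-fold higher (log2 fold change 4.097, SE 0.46, adjusted p = 0.00010, and log2 fold change 3.02, SE 0.45, adjusted p = 0.00047). The leukocyte plastin Lcp1 was spread widely in Sca-1-, with 35.5, 41.3, 104, 620.4 and 42.6 CPM (log2 fold change -0.27, SE 0.84, adjusted p = 0.82).

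Both tropomyosins were lower in Sca-1+, Tpm4 by more than Tpm1. Tpm4, a short tropomyosin that platelets need for their normal number and size, measured 1508, 1173, 1236 and 1143 CPM in Sca-1+ and 8950.4, 9045, 5680.3, 3238 and 4367 CPM in Sca-1- libraries. The lowest Sca-1- library, 16, was above the highest Sca-1+ library, 7. Its level was 4.95-fold lower in Sca-1+ (log2 fold change -2.31, SE 0.39, adjusted p = 0.00099). Over 134 bases its exons overlap a gene on the other strand, where reads are uncertain.

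Tpm1, which gives short and long tropomyosins by splicing that this table does not separate, had 418, 412, 515 and 527 CPM in Sca-1+ against 1814, 2208, 1100.3, 664 and 790.2 CPM in Sca-1-. Libraries 16 and 22 lay close to the Sca-1+ range. Its fold of 2.81 was the smallest of the 8 (log2 fold change -1.49, SE 0.39, adjusted p = 0.010).

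Tpm4 counts per Tpm1 count were 3.61, 2.84, 2.40 and 2.17 in Sca-1+ and 4.93, 4.10, 5.16, 4.88 and 5.53 in Sca-1- libraries. The fractions did not overlap, although Sca-1+ library 7 came near Sca-1- library 10. The log2 balance was 1.43 ± 0.32 in Sca-1+ (SD, n = 4) and 2.29 ± 0.16 in Sca-1- (SD, n = 5), 1.81-fold lower in Sca-1+ (two-sided exact permutation test, p = 0.0079, the lowest value open to it).

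**Figure D3:**
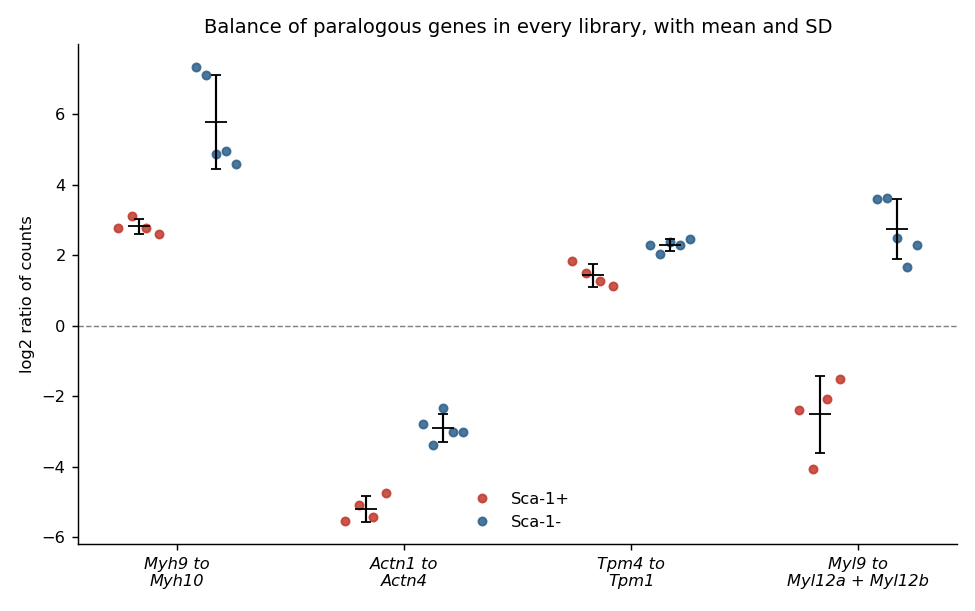
Log2 ratio of counts for 4 pairs of related genes in each library (points), with the mean and SD of the 4 Sca-1+ and 5 Sca-1- libraries. In each pair all Sca-1+ points lie below all Sca-1- points, with differences of -2.96, -2.29, -0.86 and -5.25.

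Of 10 other actins, tropomyosins and filament caps, 6 were lower, 1 was higher and 3 did not pass. Beta-actin (Actb) was at 1511, 1191, 1564 and 1720.0 CPM in Sca-1+ and 12916, 9098, 7081, 4852 and 4551 CPM in Sca-1- libraries (log2 fold change -2.36, SE 0.40, adjusted p = 0.00099). Calponin 2 (Cnn2), an actin-binding brake on myosin, was 11.3-fold lower (log2 fold change -3.499, SE 0.39, adjusted p = 9.4e-05), and Tmod3, which caps the pointed end of filaments, had 489.8 ± 152 against 869 ± 593 CPM (log2 fold change -0.83, SE 0.49, adjusted p = 0.20). The muscle actins parted. Smooth muscle alpha-actin (Acta2) was higher in Sca-1+ (255 ± 152 against 9.36 ± 6.89 CPM, log2 fold change 4.76, SE 0.81, adjusted p = 0.00097) and Actg2, the gamma actin of gut smooth muscle, lower at low levels (0.528 ± 0.574 against 9.48 ± 4.11 CPM, log2 fold change -4.15, SE 0.98, adjusted p = 0.0064).

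Diap1 (mDia1), the formin that links an active small GTPase to filament growth and takes part in proplatelet formation, measured 11.4, 9.20, 11.7 and 17.3 CPM in Sca-1+ and 88.3, 86.1, 37.8, 52.1 and 28.6 CPM in Sca-1- libraries, with Sca-1- library 22 nearest to Sca-1+ library 19. The level was 4.72-fold lower in Sca-1+ (log2 fold change -2.24, SE 0.39, adjusted p = 0.0011). Its relatives Diap2 and Diap3, named beside it after their values were seen, went in opposite directions, Diap2 higher (25.6 ± 5.88 against 2.33 ± 2.64 CPM, log2 fold change 3.44, SE 0.71, adjusted p = 0.0029) and Diap3 lower (1.17 ± 0.608 against 7.14 ± 4.28 CPM, log2 fold change -2.61, SE 0.59, adjusted p = 0.0050).

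Among 18 other formins and nucleators 10 were lower, 2 were higher and 6 did not pass. Of the 6 listed subunits of the Arp2/3 complex, which branches filaments, 4 were lower and 2, Arpc1b and Arpc3, did not pass. The subunits Arpc2 and Arpc5 were 4.63-fold and 2.76-fold lower in Sca-1+ (log2 fold change -2.21, SE 0.36, adjusted p = 0.00074, and log2 fold change -1.47, SE 0.26, adjusted p = 0.0013), whereas Arpc1b had 544 ± 61.1 against 469 ± 91.03 CPM (log2 fold change 0.21, SE 0.22, adjusted p = 0.46). The others, named after their values were seen, were Actr2 (log2 fold change -0.62, SE 0.20, adjusted p = 0.030), Actr3 (log2 fold change -2.03, SE 0.29, adjusted p = 0.00034) and Arpc3 (log2 fold change 0.24, SE 0.22, adjusted p = 0.39). Was, the activator of Arp2/3 in blood cells, had at most 5 counts in any Sca-1+ library and 31.8, 42.3, 11.96, 18.4 and 24.9 CPM in Sca-1- libraries (adjusted p = 7.3e-05). The formin Daam1 was 18.7-fold lower (log2 fold change -4.22, SE 0.60, adjusted p = 0.00035).

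Genes of focal adhesions and actin turnover were lower in Sca-1+ in 15 of 19 cases, higher in 3, and 1 did not pass. Thymosin beta 4 (Tmsb4x), which holds actin monomers in reserve, measured 8430.3, 8484, 8972 and 7996 CPM in Sca-1+ and 44214, 38789, 29187, 17086 and 17599 CPM in Sca-1- libraries (log2 fold change -1.79, SE 0.43, adjusted p = 0.0065). Profilin (Pfn1), which feeds monomers to formins, was 4.12-fold lower (log2 fold change -2.04, SE 0.30, adjusted p = 0.00043), and zyxin (Zyx), a sensor of tension at focal adhesions, 44.5-fold lower (log2 fold change -5.47, SE 0.56, adjusted p = 5.9e-05). The largest differences were in 2 genes known from blood cells, kindlin 3 (Fermt3, log2 fold change -9.18, SE 0.63, adjusted p = 1.5e-05) and coronin 1A (Coro1a, log2 fold change -6.79, SE 0.85, adjusted p = 0.00019), of which Coro1a also stood in the leukocyte list. Over the 74 tested genes of these actomyosin groups together, beside the 10, 38 were lower, 11 were higher and 25 did not pass, with a median log2 fold change of -1.11. Among all genes tested, 21.4% were lower and 23.3% higher.

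**Figure D4:**
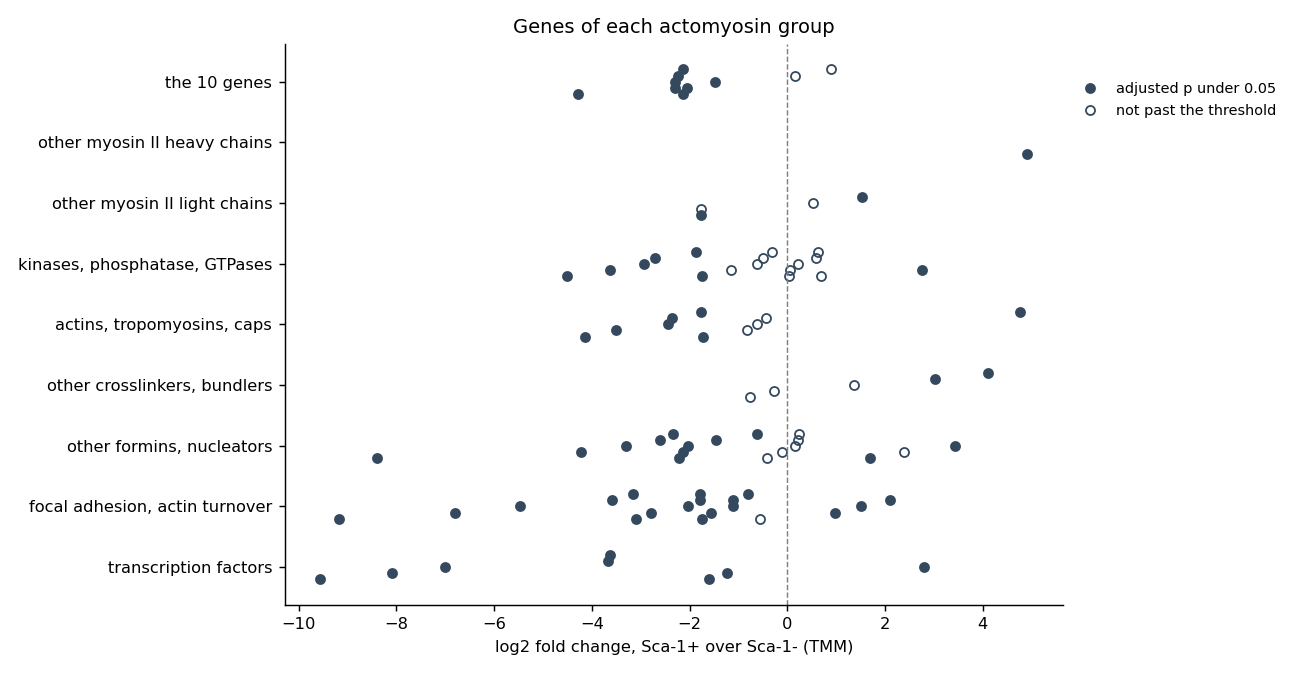
Log2 fold change, Sca-1+ over Sca-1-, of each tested gene by group, with filled points for an adjusted p under 0.05 and open points for the rest. Most filled points lie left of 0 (lower in Sca-1+), while the other crosslinkers and bundlers have filled points on the right only.

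Of 9 transcription factors listed beside these genes, Myocd was not tested, 7 were lower in Sca-1+ and 1 was higher. Whether they act on these genes in the sorted cells was not tested. Runx1, which represses Myh10 and activates Myl9 in megakaryocytes, measured 6.99, 2.79, 5.91 and 6.62 CPM in Sca-1+ and 64.8, 100.05, 65.7, 62.5 and 61.6 CPM in Sca-1- libraries (log2 fold change -3.67, SE 0.33, adjusted p = 3.6e-05). The megakaryocyte and erythroid factors Gata1, Nfe2 and Gfi1b were each under 10 CPM in every Sca-1+ library, with log2 fold changes of -8.08, -9.56 and -7.002 (adjusted p = 3.4e-05, 5.0e-05 and 1.8e-05). Fli1, shared by ECs and megakaryocytes, was lower as well (124 ± 21.97 against 379 ± 221 CPM, log2 fold change -1.61, SE 0.42, adjusted p = 0.010). Srf, the factor of CArG boxes, had 9.95, 8.07, 9.70 and 13.2 CPM against 24.99, 28.1, 24.4, 19.6 and 22.6 CPM (log2 fold change -1.23, SE 0.23, adjusted p = 0.0017). Its actin-regulated cofactors parted, Mkl1 being 12.4-fold lower (log2 fold change -3.63, SE 0.45, adjusted p = 0.00018) and Mkl2 6.98-fold higher (log2 fold change 2.803, SE 0.32, adjusted p = 0.00010).

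Between genes, levels were compared as CPM per kb of merged exon, as a description. In Sca-1+ libraries the order ran from Tpm4 (574 ± 75.6, mean ± SD, n = 4) over Myl9 (190.3 ± 104), Actn4 (172 ± 18.7), Tpm1 (72.2 ± 9.48), Flna (11.5 ± 3.08), Mylk (6.25 ± 3.04), Actn1 (5.30 ± 1.60), Myh9 (3.70 ± 0.130) and Diap1 (1.96 ± 0.542) to Myh10 (0.648 ± 0.0757). The ranges of Myl9 and Actn4, of Flna and Mylk, and of Mylk and Actn1 overlapped, so those neighbours could not be ordered. In Sca-1- libraries Myl9 (3688 ± 1721, mean ± SD, n = 5) came first and Tpm4 (2839.8 ± 1202) next, with overlapping ranges. Tpm1 (203 ± 103) and Actn4 (153 ± 83.7) followed, Myh9 (16.4 ± 8.75) was again in eighth place, and Myh10 (0.348 ± 0.149) last, and from Tpm1 down to Diap1 each gene's range overlapped that of the next.

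Among the actomyosin genes and transcription factors listed here, the genes most like each member over the 9 libraries were found by Pearson's r of log2 CPM. Each r includes the step between the fractions and the scaling that the libraries share, so the values are a description. Myh9 was closest to Tmsb4x (r = 0.99) and Arhgef12 (r = 0.99), Myl9 to Srf (r = 0.99) and Mkl1 (r = 0.98), and Mylk to Tpm2 (r = 0.99) and Myl9 (r = 0.98). Flna was closest to Wdr1 (r = 0.98) and Tpm4 (r = 0.98), Tpm4 to Wdr1 (r = 0.99) and Myl6 (r = 0.99), and Tpm1 to Arhgef12 (r = 0.98) and Coro1c (r = 0.97). Actn1 was closest to Actg1 (r = 0.99) and Actb (r = 0.98), and Diap1 to Vasp (r = 0.98) and Ppp1r12b (r = 0.98). The members that did not pass had other neighbours, Actn4 Rhoa (r = 0.95) and Rhob (r = 0.93), and Myh10 Arhgef2 (r = 0.84) and Myl12b (r = 0.84).

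The 8 lower genes were lower under each of the 5 scalings tried. Scaling to 12 endothelial marker genes moved the median log2 fold change of all genes from 0.07 to -2.27 and left 540 genes higher and 10784 lower, against 3721 and 3416 with TMM. Library size alone moved the median to 0.43, with 4158 higher and 2431 lower. Relative to the median of all genes, Myh9 stayed at -2.22, -2.001 and -1.85 with TMM, library size alone and endothelial markers. Relative to the same medians Myh10 was at 0.82, 0.75 and 0.71, and Actn4 at 0.09, 0.31 and 0.46.

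**Figure D5:**
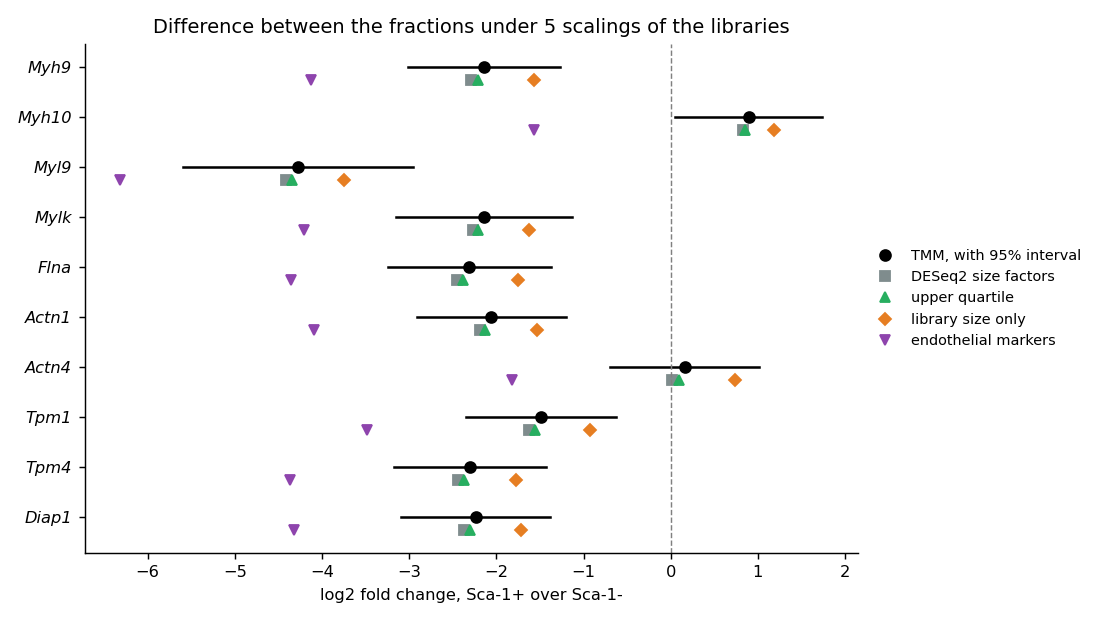
Log2 fold change, Sca-1+ over Sca-1-, of the 10 genes with TMM scaling (black, with 95% interval) and under 4 other scalings (coloured marks). The marks of 8 genes lie left of 0 under each scaling, while those of Myh10 and Actn4 lie right of 0 except when scaled to endothelial markers.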

How the data were processed

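RNA was measured in 4 Sca-1+ and 5 Sca-1- libraries of sorted BM cells that the labels name ECs. Each was prepared from 2 ng of RNA by a SMART-Seq v4 kit, which adds no molecular identifiers, so depth gives counting error only. The authors deposited whole-number read counts per gene, not normalized, made with STAR and featureCounts on mm10 per the submitters' processing notes. Versions, strand and multimapper settings are not given in the sources used here. The 9 count columns were mapped to samples by name.

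The fit used edgeR 4.0.16 (R 4.3.3): filterByExpr (minimum count 10, total 15), TMM, and the two-sided quasi-likelihood F-test with Benjamini-Hochberg adjustment at 0.05. Standard errors came from the F statistic, and levels are CPM on TMM-scaled totals. Balances are log2 ratios of counts plus 0.5, compared by exact permutation. DESeq2 1.42.0 and limma voom (3.58.1), other scalings, no filter, a robust fit, a block and left-out libraries were alternatives. In simulated data with 50 genes changed in each direction by 3 on the log2 scale, the fit called 35 of the lowered and 47 of the raised, and with changes of 1.5 it called 5 and 23 of 50. Gene positions came from GENCODE M21, promoters from RefSeq (9 of 10 genes). Libraries of a fraction differed by more than sampling noise (chi-square per degree of freedom at least 36.8 over 16 pairs), so none was taken as another library sequenced again. Separate preparations of the same RNA or mouse can also differ by more than sampling noise, so this check cannot show that the libraries are independent.

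The 10 genes and the other lists were chosen with earlier results of these data known. The genes named are the 10, the 3 with the highest mean CPM and the 2 with the largest called difference of each list, every transcription factor tested, and those marked as named after their values were seen. Marker lists are given as sums and counts. 1 gene was left out of the other lists and is not reported here, and listed genes that are not named stand in the counts.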

Additional observations from a re-analysis of the deposited data

Results flagged for a closer look

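Of 28 groups of libraries examined (the 10 genes and the 4 balances in each fraction), 1 held a library far from the others, and chance alone gives about 1 in 20. The groups are not independent, since the balances reuse counts of the 10 genes, so how many chance would flag here is not known. Actn1 in Sca-1+ library 19 was at 5.42 log2 CPM, while the other 3 Sca-1+ libraries lay between 4.600 and 4.698. The gap took 0.88 of the group's range. Library 19 also had the highest Mylk, Myl9 and Diap1 and the highest sums of smooth muscle, leukocyte and erythroid markers among the Sca-1+ libraries. Their part in its Actn1 level was not tested. Without library 19 the log2 fold change of Actn1, Sca-1+ over Sca-1-, was -2.29 (adjusted p = 0.0030) in edgeR.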

How the results depend on the processing

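Myh9, Myl9, Mylk, Flna, Actn1, Tpm4 and Diap1 were lower in Sca-1+ with an adjusted p under 0.05 under each of the 20 alternatives fitted across all genes, and Tpm1 under 19 (edgeR, DESeq2 and limma voom). The number of the 10 genes called lower was 8, except 9 with endothelial marker scaling (Actn4 added) and 7 with the block. The number called higher was 0, and 1 with library size alone (Actn4), DESeq2 (Myh10), limma voom (Myh10) and without Sca-1- libraries 8 and 10 together (Actn4), and it ranged from 0 to 1 when single libraries were left out. Endothelial marker scaling gave Myh10 -1.57 (adjusted p = 0.058) and Actn4 -1.82 (adjusted p = 2.8e-05), both turned in sign in edgeR. Actn4 also turned without Sca-1- library 14, to -0.087 (adjusted p = 0.89), and without library 16, to -0.0030 (adjusted p = 0.99), and without single libraries ranged from -0.087 to 0.377. The cause was not tested. Of the 74 other actomyosin genes, 2 were higher and 61 lower with endothelial marker scaling, against 11 and 38, and without single libraries 10 to 13 were higher and 36 to 41 lower.

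The label numbers of the fractions differ, and consecutive numbers (7 and 8, 13 and 14, 15 and 16) were taken as 3 pairs in a replicate block. Their deviations correlated between 0.0420 and 0.148, 1 of the 3, that of 15 and 16, under 0.1. The 17 other pairings of a Sca-1+ with a Sca-1- library lay between -0.191 and 0.0650. The values of 7 with 8 and of 13 with 14 were above all of these, and that of 15 with 16 was inside their range. The titles of 15 and 16 share a number, those of 13 and 14 share the mark CD452 with 22, and those of 7 and 8 share neither, so the pairing is not settled by the labels. With the block over 6 libraries Tpm1 was at -1.31 (adjusted p = 0.083) in edgeR, and 31 of the other actomyosin genes were lower and 9 higher, against 35 and 9 in the same libraries without it. The within-pair differences of the balances under the block were -2.84, -2.64, -0.78 and -5.43 for Myh9 to Myh10, Actn1 to Actn4, Tpm4 to Tpm1 and Myl9 to Myl12a plus Myl12b (exact sign-flip permutation test, p = 0.25, the smallest 3 pairs allow). Without single libraries the same balances ranged from -3.26 to -2.57, from -2.44 to -2.14, from -0.996 to -0.751 and from -5.58 to -4.74, and each kept an exact permutation p of 0.018 or 0.029, the smallest possible.

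Of the 10 genes Myh10 had the fewest counts, 33 and 34 in Sca-1- libraries 8 and 10. The simulation called fewer genes lowered than raised by the same amount, so a missed difference is not shown to be absent.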
